A study of Mus musculus with 5 samples.

Results

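Chemokines and their receptors were read out of the RNA-seq of 5 CRC tumours. They were taken by gene symbol as the CC and CXC chemokines (Ccl and Cxcl) and the CC and CXC receptors (Ccr and Cxcr) of the deposited table. The genes Ccl19, Ccl21a, Cxcl13, Ccr7 and Cxcr5, which organise lymphoid tissue, were left out. This gave 47 of 54113 named entries, of which 33 were ligands and 14 receptors. The tumours came from C57BL/6 mice that carried MC-38 cells, a mouse colon adenocarcinoma line, and had been kept for 2 weeks at 30 °C (3 tumours, the thermoneutral control) or at 4 °C (2 tumours). The mice were of the same strain without a stated genetic change, and their age and sex are not given in the labels. The paper describes the tumours as separate biological samples.

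Chemokines are small secreted proteins that form gradients along which leukocytes migrate, and their receptors signal through inhibitory G proteins to the cytoskeleton and the integrins. CXC chemokines with an ELR motif recruit neutrophils, the interferon-inducible CXC chemokines recruit effector T cells and natural killer cells, and the CC chemokines recruit mainly monocytes, eosinophils and lymphocytes. Another class, to which Cxcl12 belongs, is made constantly by stromal cells and keeps leukocytes and progenitors in place. In tumours these signals help to set which leukocytes enter the tissue.

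Depth ranged from 16191708 to 20320525 counts per library, so that 3 counts, taken here as the floor of detection, equalled 0.148 to 0.185 CPM (counts divided by the library total and multiplied by 1000000). Levels are given as CPM scaled by the TMM method, in which a library with a few very abundant genes is not pushed down by them. The scaling factor was 0.738 in 30 °C replicate 2, where transcripts of 24 pancreatic acinar genes summed to 366685 TMM-scaled CPM, and between 1.03 and 1.13 in the other libraries. The acinar sum was 2590 in 4 °C replicate 2 and between 19.2 and 77.0 in the remaining 3 libraries. Markers of the labelled colon tumour were low. The 8 epithelial genes summed to between 17.5 and 165 TMM-scaled CPM, with 5 of the 8 above 3 counts in every library, and the intestinal genes Cdx2 and Vil1 stayed below 0.5 in each library. By contrast, the 10 B cell genes summed to between 12624 and 18058, and the splenic mesenchyme genes Tlx1, Nkx2-3 and Nkx2-5 were above the floor in all 5 libraries. In such bulk tissue, fewer cells of a type and less RNA per cell cannot be told apart.

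Most of the family was expressed. Of the 47 genes, 32 had more than 3 counts in every library and 5 had more than 3 in none. To set genes side by side, levels were divided by the length of all annotated exons (CPM per kb). Among the ligands, Ccl5, which attracts T cells and monocytes, stood highest at a mean of 76.5 CPM per kb (range over the 5 libraries 56.9 to 92.0). Cxcl12, the stromal retention factor, came next at 34.8 (27.0 to 51.6) and did not overlap with Ccl5. Ccl6, a myeloid CC chemokine, followed at 29.7 (20.5 to 36.6) and overlapped with Cxcl12. Cxcl9 and Cxcl10, both induced by interferon, had 15.8 (10.4 to 27.5) and 13.4 (7.37 to 19.9) CPM per kb and overlapped with each other.
Among the receptors, Cxcr4, the receptor of Cxcl12, stood highest at 74.4 CPM per kb (48.2 to 100.3), above the range of every other receptor. The next 4 were Cxcr2 of neutrophils at 16.4 (9.14 to 30.7), Ccr3 of eosinophils at 15.2 (4.38 to 22.0), Ccr6 of B cells and some T cells at 12 (5.12 to 19.4) and Cxcr3 of effector T cells at 11.7 (7.22 to 14.8). The ranges of these 4 overlapped, so that their order does not hold beyond the spread between tumours.

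**Figure D1:**
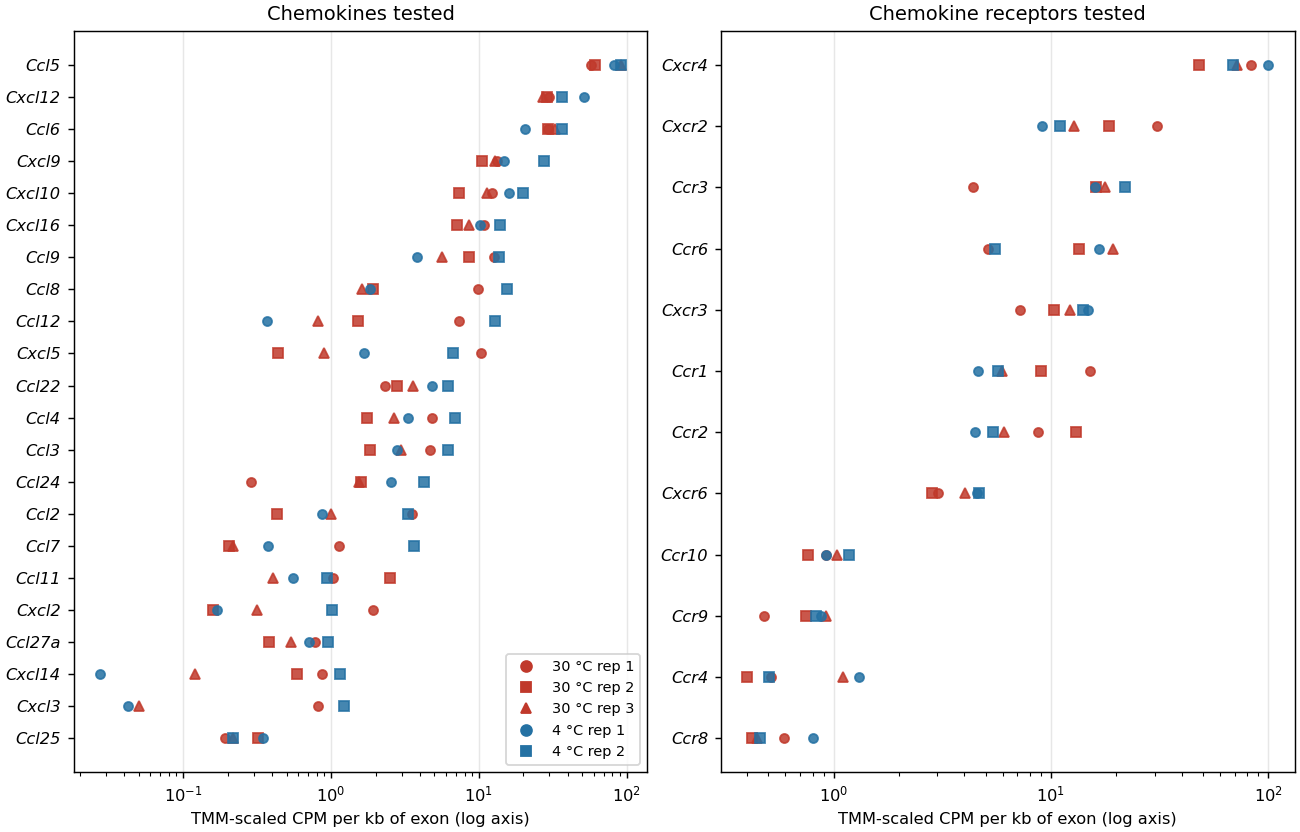
Level of the 22 chemokines (left) and 12 receptors (right) described here that passed the filter on low counts, in TMM-scaled CPM per kb of exon on a log axis, with 1 point per library (red for 30 °C, blue for 4 °C). Ccl5 and Cxcr4 have the highest means, 76.5 and 74.4, while Cxcl14, Ccl12 and Cxcl5 are among the genes that spread most between libraries. The library in which Cxcl3 had 0 counts is not drawn.

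To study the effect of cold exposure on these genes, the edgeR quasi-likelihood test was run over all 16133 genes that passed the filter on low counts. Of the 47 genes, 35 were tested, 22 ligands and 13 receptors. At an adjusted p under 0.05, 0 of the 35 were called, as were 0 of all genes tested (0.0%), and the smallest adjusted p among the 35 was 0.69. The DESeq2 Wald test, the test named in the paper, gave an adjusted p for 19 of the 35 and called 0 of these (smallest adjusted p = 0.22), against 1.01% of the 11697 genes with an adjusted p. The other 16, among them Ccl24 and most monocyte attractants, had no adjusted p from DESeq2 and could not be called by it.
At an unadjusted p under 0.05, 4 ligands (Ccl22, Cxcl12, Cxcl10 and Cxcl9) had higher levels at 4 °C and 2 receptors (Cxcr2 and Ccr2) had lower levels. These are 11.4% and 5.71% of the 35 genes, where 2.58% and 4.17% of all genes were so called. Both directions together gave 6 genes (17.1%), against 6.76% of all genes. DESeq2 put 5 above (with Ccl24) and 3 below (with Ccr1) at the same limit, against 2.48% and 5.35% of all genes. The higher count depended on single tumours and was 1 without 30 °C replicate 2, 1 without 4 °C replicate 2 and 7 without 30 °C replicate 1, and it lay at 4 or 5 without either remaining tumour. The lower count was 1 without 30 °C replicate 2, 1 without 4 °C replicate 2 (Ccl6 in place of the 2 receptors) and 0 without 4 °C replicate 1. It was 3 without 30 °C replicate 3.
The groups did not overlap in 10 of the 35 genes (28.6%), against 23.3% of all genes. In 7 of the 35 (20%), both tumours at 4 °C lay above all 3 at 30 °C, against 12.2% of all genes, and in 3 (8.57%) both lay below, against 11%. Those above were the ligands Ccl22, Cxcl12, Cxcl10, Cxcl9 and Ccl24 and the receptors Cxcr3 and Cxcr6. Those below were the receptors Cxcr2, Ccr2 and Ccr1. For a single gene, an exact two-sided permutation test over 3 tumours against 2 cannot give a p under 0.2, so no gene can pass 0.05 by it.
The log2 fold change between 4 °C and 30 °C was positive for 18 of the 22 ligands, with a median of 0.52. For the receptors it was positive for 8 of 13, with a median of 0.25. The median over all genes tested was 0.0064. The ligand median rested on 4 °C replicate 2 and was -0.55 without it. The receptor median was 0.12 without 30 °C replicate 2 and 0.085 without 4 °C replicate 1.

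**Figure D2:**
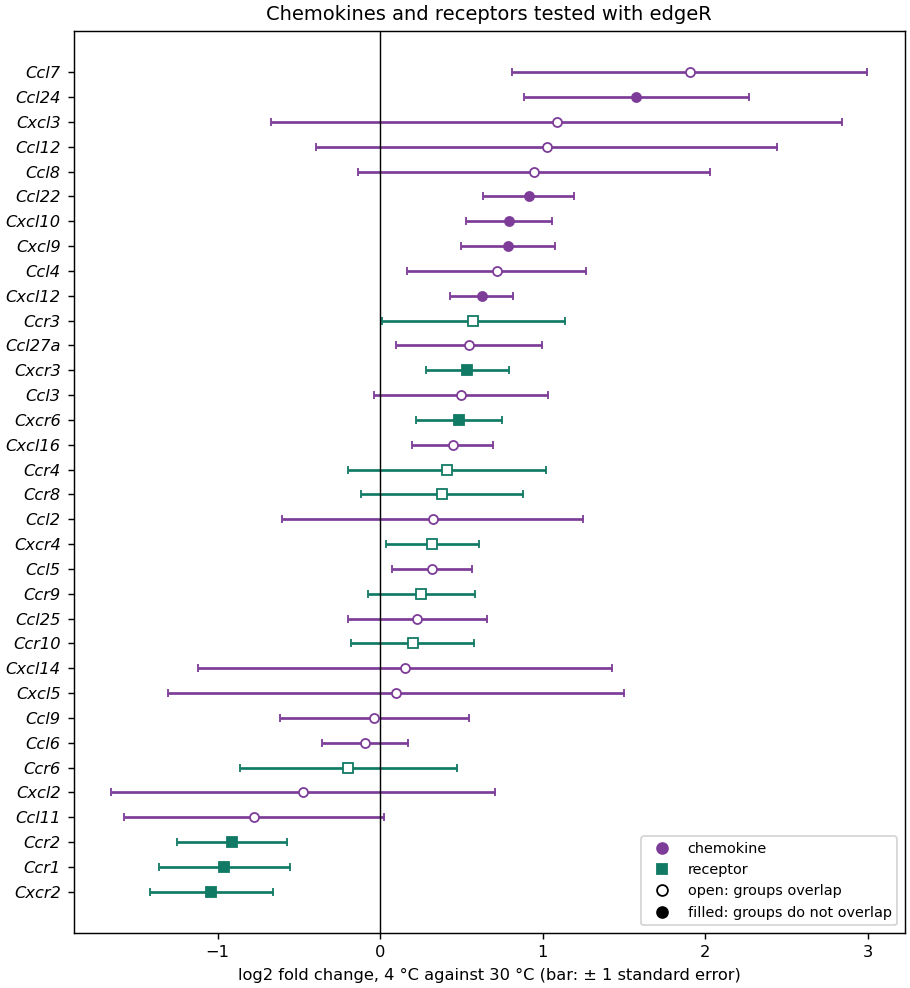
Log2 fold change (4 °C against 30 °C) of 34 genes tested with edgeR, with bars of 1 SE, for ligands (circles) and receptors (squares). Filled symbols mark the 10 genes whose groups do not overlap. Cxcr2, Ccr1 and Ccr2 stand at the lower end, and the genes with the longest bars, such as Cxcl3, Ccl12 and Cxcl5, are ligands that differed strongly within each group.

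The interferon-inducible chemokines Cxcl9 and Cxcl10 and their receptor Cxcr3 had higher levels in both tumours at 4 °C than in each at 30 °C, without passing the adjusted test. Cxcl9 (chromosome 5 of GRCm38, 92321347 to 92328079) had 40.1, 31.5 and 39.0 TMM-scaled CPM at 30 °C and 44.4 and 82.8 at 4 °C. The groups were apart, but 4 °C replicate 1 lay close to the 30 °C tumours. For Cxcl9 the log2 fold change was 0.79 (SE 0.29, adjusted p = 0.71, edgeR), and 0.25 without 4 °C replicate 2.
Cxcl10, its neighbour (92346638 to 92348889), had 27.7, 16.6 and 25.7 at 30 °C and 36.1 and 44.8 at 4 °C, so that both cold tumours exceeded each control. Its log2 fold change was 0.79 (SE 0.26, adjusted p = 0.69, edgeR). Exons of Art3 on the opposite strand overlap 5.91% of the exon bases of Cxcl10, and the strand setting of the counting is not given in the sources used here.
Cxcl11, the remaining ligand of this group, had 2, 2, 2, 3 and 6 counts and was not tested. The pseudogene Gm2673 on the opposite strand overlaps 41.7% of the exon bases of Cxcl11. Cxcr3 (chromosome X, 101731535 to 101734269) had 12.5, 17.8 and 21.2 at 30 °C and 25.6 and 24.3 at 4 °C. The cold tumours were almost equal, while the control tumours spread below them. For Cxcr3 the log2 fold change was 0.54 (SE 0.26, adjusted p = 0.76, edgeR) and 0.35 without 30 °C replicate 1.
Cxcr6, carried by tissue T cells and natural killer cells, had 5.85, 5.50 and 7.77 at 30 °C and 8.85 and 9.05 at 4 °C (log2 fold change 0.49, SE 0.27, adjusted p = 0.79, edgeR). Its ligand Cxcl16 had 32.9, 21.6 and 25.7 at 30 °C and 30.9 and 42.0 at 4 °C, with overlapping groups. Exons of Zmynd15 on the opposite strand overlap 18.3% of the exon bases of Cxcl16.
Beside these receptors, the 10 T cell markers summed to 351, 384 and 524 TMM-scaled CPM at 30 °C and to 732 and 754 at 4 °C. All 10 had positive log2 fold changes and all 10 were above the floor in every library. The 6 natural killer cell markers summed to between 54.7 and 142 at 30 °C and to 94.0 and 99.4 at 4 °C, with 4 of 6 positive. The part of the T cell share in the levels of Cxcr3 and Cxcr6 was not tested. Ifng, the inducer of Cxcl9 and Cxcl10, stood between 0.905 and 1.07 at 30 °C and at 0.995 and 1.26 at 4 °C, with overlapping groups.
The promoters of this pair are shown because they are adjacent genes with the same inducer. The run covers 220 bases up to 31 bases before the RefSeq start site, on GRCm38.p6, for Cxcl9 at chr5:92328110-92328329 (minus strand) and for Cxcl10 at chr5:92348920-92349139 (minus strand). Capitals mark matches to the kappa-B consensus (the site of NF-κB) or to the interferon element ISRE (GAAA, any 2 bases, GAAA), on either strand, with overlapping matches joined.
Cxcl9: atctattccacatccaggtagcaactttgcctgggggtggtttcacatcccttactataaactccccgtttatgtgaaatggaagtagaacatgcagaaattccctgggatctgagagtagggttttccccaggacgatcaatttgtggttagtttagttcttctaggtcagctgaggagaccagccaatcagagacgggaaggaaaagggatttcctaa
Cxcl10: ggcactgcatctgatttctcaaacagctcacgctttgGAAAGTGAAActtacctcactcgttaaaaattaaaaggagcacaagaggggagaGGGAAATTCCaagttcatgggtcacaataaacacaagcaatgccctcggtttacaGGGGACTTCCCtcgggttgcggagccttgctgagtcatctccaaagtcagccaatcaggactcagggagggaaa
Cxcl10 held 1 match to the interferon element, which starts 213 bases before its start site, and 3 to the kappa-B consensus. Cxcl9 held none in this window. Of all 32851 RefSeq promoter windows, 2.98% held the interferon element and 7.25% the kappa-B consensus within 250 bases before the start. The gamma-interferon element (TTC, any 3 bases, GAA), also searched on both strands, was held by 7.02% of all windows and by 3 of the 30 windows of the family, and by none of the promoters printed here.

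Cxcl12 was among the genes with the smallest p. Cxcl12 (chromosome 6, 117168535 to 117181367) had 245, 236 and 221 TMM-scaled CPM at 30 °C and 422 and 299 at 4 °C. The 30 °C tumours were close together, and both cold tumours lay above them. Means with SD were 234 ± 12.3 for the 3 control tumours against 360 ± 86.9 for the 2 cold tumours. In the edgeR fit the log2 fold change was 0.62 (SE 0.19, adjusted p = 0.69, edgeR), 0.36 without 4 °C replicate 1 and 0.84 without 4 °C replicate 2.
The receptor Cxcr4 (chromosome 1, 128588199 to 128592293) had 150, 87.1 and 129 at 30 °C and 181 and 124 at 4 °C. Its groups overlapped (log2 fold change 0.32, SE 0.29, adjusted p = 0.86, edgeR). Ackr3, the scavenging receptor of Cxcl12, had 44.0, 31.9 and 46.6 at 30 °C and 55.1 and 51.3 at 4 °C, with groups that did not overlap (log2 fold change 0.38, SE 0.21, adjusted p = 0.80, edgeR).
Levels of stromal markers are given beside Cxcl12. The 3 splenic mesenchyme genes summed to 38.8, 32.5 and 41.3 at 30 °C and to 61.2 and 57.2 at 4 °C, and each of the 3 was higher in both cold tumours. The 8 fibroblast and smooth muscle genes summed to between 461 and 888 at 30 °C and to 684 and 1171 at 4 °C, with overlapping groups and 6 of 8 positive. Of the cold tumours, replicate 2 had the higher sum of this list, whereas replicate 1 had the higher Cxcl12 level. The part of stromal content in the Cxcl12 level was not tested.
The promoter of Cxcl12 (chr6:117168285-117168504, plus strand, GRCm38.p6) is shown as that of a ligand made constantly, beside the inducible ones. It held no match to any of these motifs.
Cxcl12: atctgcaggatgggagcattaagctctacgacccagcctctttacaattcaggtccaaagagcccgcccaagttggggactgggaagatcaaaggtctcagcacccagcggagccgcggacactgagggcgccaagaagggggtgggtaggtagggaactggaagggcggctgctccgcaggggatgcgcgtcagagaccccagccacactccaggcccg

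Ccl22, made by dendritic cells and macrophages, had the smallest p of the family. It had 5.43, 6.49 and 8.38 TMM-scaled CPM at 30 °C and 11.2 and 14.4 at 4 °C, so that the cold tumours were apart from the controls. Its mean was 6.77 ± 1.5 (SD, n = 3) against 12.8 ± 2.25 (SD, n = 2). edgeR gave a log2 fold change of 0.91 (SE 0.28, adjusted p = 0.69, edgeR). The log2 fold change lay between 0.71 and 1.1 over all 14 alternatives, and its unadjusted p was under 0.05 in 13 of them.
Ccl17, which shares the receptor Ccr4 with Ccl22, had 9, 2, 10, 4 and 20 counts and was not tested. Ccr4 itself had 1.60, 1.23 and 3.41 at 30 °C and 4.03 and 1.56 at 4 °C, with overlapping groups. The 6 dendritic cell markers summed to between 105 and 194 at 30 °C and to 189 and 145 at 4 °C, also with overlapping groups and 5 of 6 positive.
Ccl24, an eosinophil attractant made by macrophages, had 0.373, 2.05 and 2.01 at 30 °C and 3.28 and 5.51 at 4 °C. The lowest library held 7 counts. Ccl24 had a log2 fold change of 1.58 (SE 0.69, adjusted p = 0.75, edgeR) and 1.11 without 30 °C replicate 1. The eosinophil receptor Ccr3 had 14.3, 52.8 and 58.1 at 30 °C and 52.1 and 72.1 at 4 °C, where only 30 °C replicate 1 was low (log2 fold change 0.57, SE 0.56, adjusted p = 0.87, edgeR). The other eosinophil attractant detected, Ccl11, had 1.12, 2.71 and 0.437 at 30 °C and 0.597 and 1.02 at 4 °C. The 8 markers of eosinophils, basophils and mast cells summed to between 274 and 490 at 30 °C and to 336 and 371 at 4 °C, with 6 of 8 negative.

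**Figure D3:**
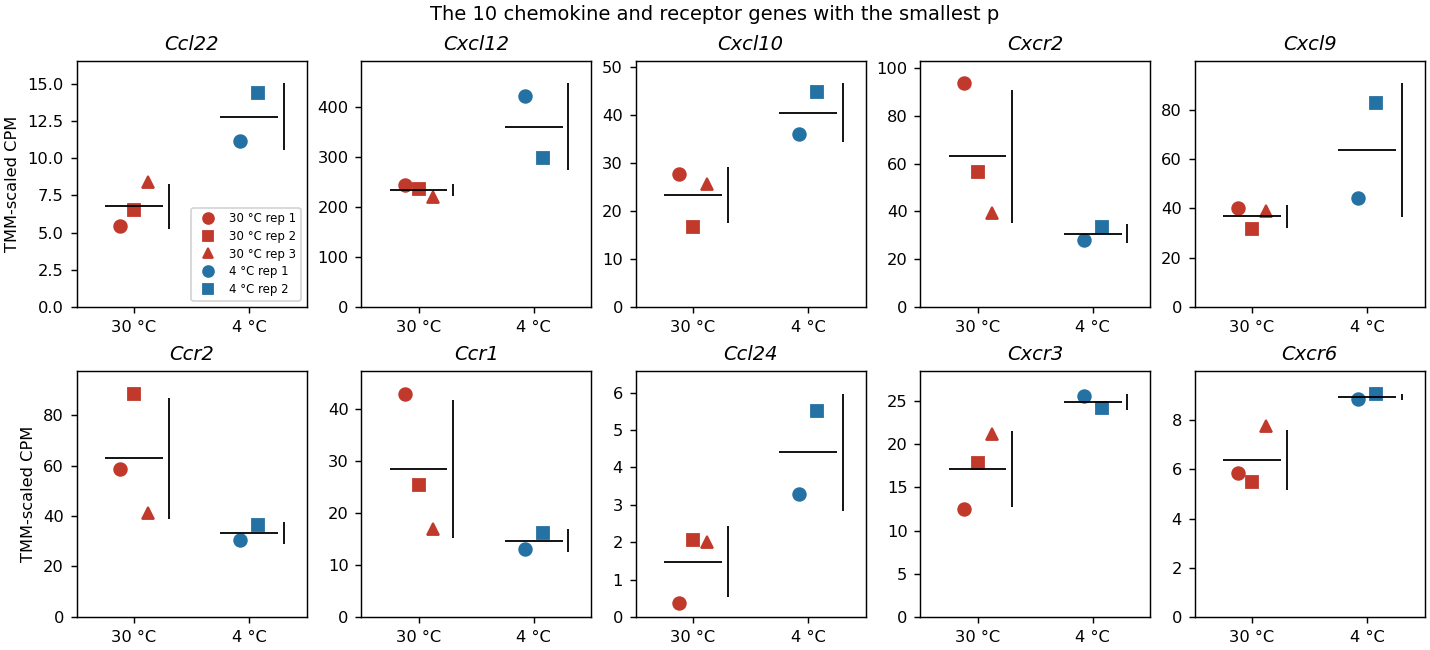
TMM-scaled CPM of the 10 genes with the smallest edgeR p, with 1 symbol per library, the group mean as a horizontal line and ± 1 SD as a vertical line (n = 3 at 30 °C, n = 2 at 4 °C). In all 10 the groups do not overlap, with Cxcr2, Ccr2 and Ccr1 lower and the other 7 higher at 4 °C.

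In 3 receptors, Cxcr2, Ccr1 and Ccr2, both tumours at 4 °C lay below all 3 at 30 °C, without passing the adjusted test. Cxcr2, the receptor through which neutrophils follow ELR chemokines (chromosome 1, 74153989 to 74161246), had 93.6, 56.3 and 39.1 TMM-scaled CPM at 30 °C and 27.8 and 33.5 at 4 °C. All control tumours were above both cold tumours, but they ranged from 39.1 to 93.6 among themselves. Its mean was 63.0 ± 27.9 (SD, n = 3) against 30.7 ± 3.99 (SD, n = 2). edgeR gave a log2 fold change of -1.04 (SE 0.38, adjusted p = 0.71, edgeR). Without 30 °C replicate 1 the log2 fold change was -0.64.
Ccr1, found on neutrophils and monocytes (chromosome 9, 123962124 to 123968692), had 42.9, 25.4 and 16.9 at 30 °C and 13.1 and 16.2 at 4 °C. Its log2 fold change was -0.96 (SE 0.41, adjusted p = 0.74, edgeR) and -0.53 without 30 °C replicate 1. The libraries stood in the same order from high to low at 30 °C as for Cxcr2, and 30 °C replicate 3 lay close to the cold tumours.
Ccr2, the receptor of inflammatory monocytes (chromosome 9, 124101950 to 124113557), had 58.8, 88.5 and 41.2 at 30 °C and 30.3 and 36.5 at 4 °C. It was highest in 30 °C replicate 2, not in replicate 1. Ccr2 had a log2 fold change of -0.91 (SE 0.34, adjusted p = 0.71, edgeR) and -0.59 without 30 °C replicate 2.
Cxcr1, the other receptor of ELR chemokines, had 2, 7, 9, 1 and 10 counts and was not tested.
Levels of myeloid markers are given beside these receptors. The 12 neutrophil genes summed to 12786, 8660 and 3105 TMM-scaled CPM at 30 °C and to 2549 and 4110 at 4 °C, so that the groups overlapped. All 12 had negative log2 fold changes, with a median of -1.36, and all were above the floor in every library. The 10 monocyte and macrophage genes overlapped between groups, with sums from 3814 to 4871 at 30 °C and of 3780 and 5195 at 4 °C. Of these 10, 6 had positive and 4 negative log2 fold changes, with a median of 0.072. Ly6c2, a marker of inflammatory monocytes in this list that was singled out after its values were seen, had 252, 260 and 160 at 30 °C and 113 and 143 at 4 °C. The part of neutrophil and monocyte content in the levels of Cxcr2, Ccr1 and Ccr2 was not tested.

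**Figure D4:**
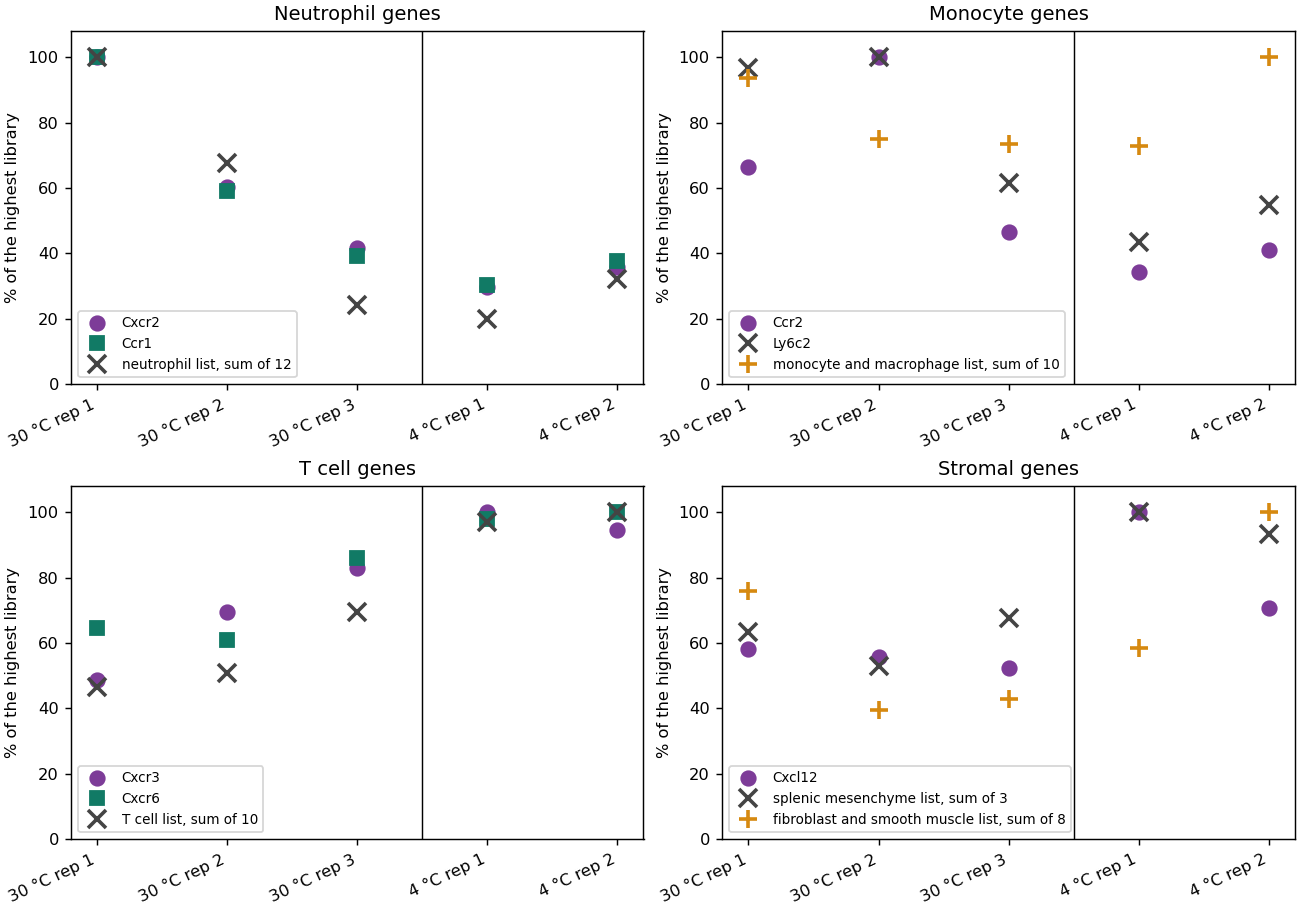
Receptors and Cxcl12 beside the markers of the cells known to carry or make them, each as a percentage of its highest library, with 30 °C tumours left and 4 °C tumours right of the line. Cxcr2, Ccr1 and the neutrophil sum are all highest in 30 °C replicate 1 and lowest in 4 °C replicate 1. Cxcr3, Cxcr6 and the T cell sum are higher in both 4 °C tumours than in every 30 °C tumour. Ccr2 and Ly6c2, a marker singled out after its values were seen, are both highest in 30 °C replicate 2. The whole monocyte and macrophage sum is highest in 4 °C replicate 2.

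The tested neutrophil and monocyte attractants differed more between tumours of a group than between the groups. In 13 of the 22 tested ligands (59.1%), 30 °C replicate 1 and 4 °C replicate 2 were the 2 highest libraries, against 0 of the 12 tested receptors described here and 20% of all genes. This pattern was chosen after its values were seen. The 13 ligands include Ccl27a, Cxcl14 and Cxcl16 but not Cxcl9, Cxcl10, Ccl22 or Ccl5.
Among the neutrophil attractants, Cxcl5 had 19.3, 0.821 and 1.66 TMM-scaled CPM at 30 °C and 3.13 and 12.5 at 4 °C. The mean over 30 °C replicate 1 and 4 °C replicate 2 was 8.49 times that of the other 3 libraries. Its log2 fold change of 0.099 (SE 1.40, adjusted p = 0.99, edgeR) was -1.23 without 4 °C replicate 2. Cxcl3 had 2.87, 0 and 0.175 at 30 °C and 0.149 and 4.31 at 4 °C, or 54, 0, 4, 3 and 72 counts. The 0 counts in 30 °C replicate 2 allow a level of up to 0.181 CPM before TMM scaling. Cxcl2 had 3.99, 0.329 and 0.655 at 30 °C and 0.348 and 2.10 at 4 °C. Cxcl1, with 52, 1, 9, 5 and 9 counts, did not pass the filter and was high in 30 °C replicate 1 alone. Cxcl15 had 12, 0, 0, 3 and 1 counts and was not tested.
The monocyte attractants showed the same split. Ccl2 had 3.99, 0.493 and 1.14 at 30 °C and 0.995 and 3.77 at 4 °C, and Ccl7 had 0.905, 0.164 and 0.175 at 30 °C and 0.298 and 2.94 at 4 °C. Ccl8 had 5.0, 0.986 and 0.830 at 30 °C and 0.945 and 7.91 at 4 °C. Ccl12 had 3.94, 0.821 and 0.437 at 30 °C and 0.199 and 6.95 at 4 °C. In each of these 4 genes the groups overlapped, and the SE of the log2 fold change was between 0.93 and 1.42. Their positive log2 fold changes (0.32 for Ccl2, 1.90 for Ccl7, 0.94 for Ccl8 and 1.03 for Ccl12) were all negative without 4 °C replicate 2, at -0.93, -0.50, -1.28 and -3.10.
The split was smaller in the macrophage inflammatory proteins and their neighbours. Ccl3, an attractant of monocytes and T cells, had 3.57, 1.40 and 2.27 at 30 °C and 2.14 and 4.73 at 4 °C, and its neighbour Ccl4 had 3.19, 1.15 and 1.75 at 30 °C and 2.19 and 4.55 at 4 °C. Ccl9, a myeloid chemokine of the mouse, had 38.7, 26.1 and 17.1 at 30 °C and 11.6 and 41.7 at 4 °C. For these 3 genes the mean of 30 °C replicate 1 and 4 °C replicate 2 was 2.14, 2.29 and 2.20 times that of the other libraries. Ccl5 had 54.7, 58.2 and 87.5 at 30 °C and 78.5 and 88.3 at 4 °C, without this split (log2 fold change 0.32, SE 0.25, adjusted p = 0.85, edgeR). Ccl6 had 52.6, 52.6 and 59.0 at 30 °C and 36.9 and 65.7 at 4 °C.
Of the other content of the libraries, Dcn, a fibroblast gene, had 260, 75.6 and 42.6 at 30 °C and 45.8 and 184 at 4 °C. Col1a1 had 161, 79.7 and 80.3 at 30 °C and 76.5 and 280 at 4 °C. Both were singled out after their values were seen, from the list of 8 fibroblast and smooth muscle genes. That list summed to 888, 461 and 501 at 30 °C and to 684 and 1171 at 4 °C. Krt8 had 33.7, 53.8 and 4.10 at 30 °C and 2.93 and 57.9 at 4 °C, so that it was also high in 30 °C replicate 2. The cytokines Tnf and Il1b, which induce these ligands, had 8.14, 2.22 and 2.71 at 30 °C and 3.23 and 4.73 at 4 °C for Tnf, and 40.9, 43.9 and 63.7 at 30 °C and 29.4 and 48.1 at 4 °C for Il1b. The part of fibroblast content in the ligand levels was not tested.

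**Figure D5:**
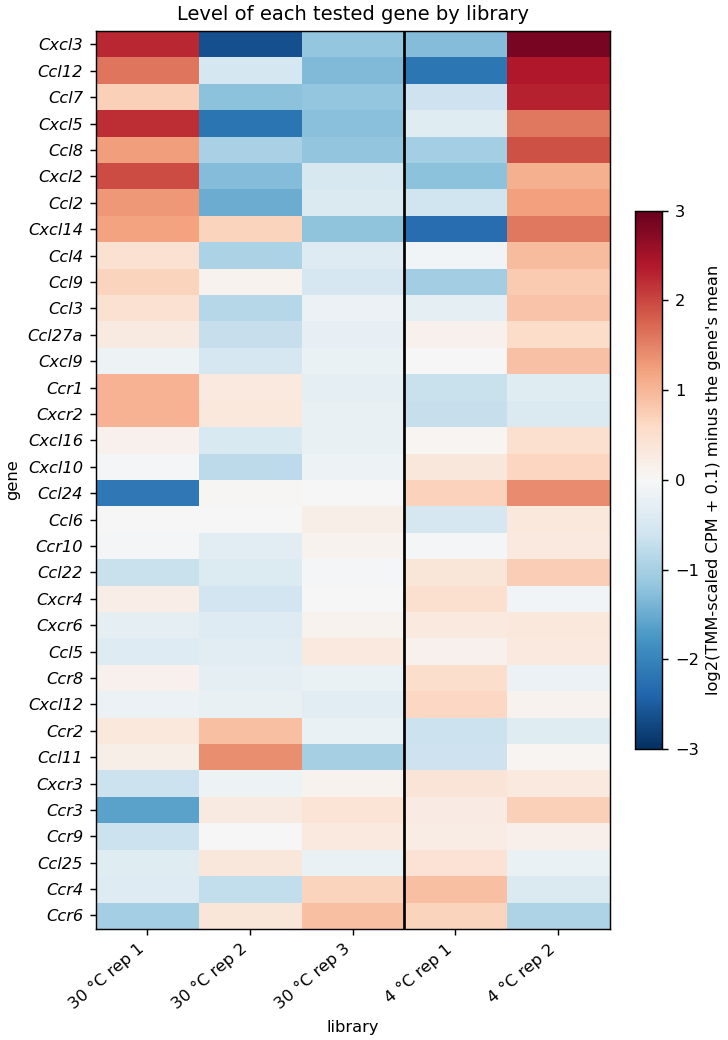
Level of each of 34 tested genes in each library, as log2(TMM-scaled CPM + 0.1) minus the mean of that gene, with 30 °C tumours left and 4 °C tumours right of the line and genes sorted by the ratio of 30 °C replicate 1 and 4 °C replicate 2 to the other libraries. Cxcl3, Ccl12, Ccl7, Cxcl5, Ccl8, Cxcl2 and Ccl2, at the top, are red in these libraries and blue in 30 °C replicates 2 and 3 and in 4 °C replicate 1, with Ccr6 at the bottom showing the reverse.

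The promoters of 3 neutrophil attractants are shown because these neighbouring genes share a site. Each run of 220 bases ends 31 bases before the RefSeq start site on GRCm38.p6, at chr5:90890995-90891214 for Cxcl1, chr5:90903649-90903868 for Cxcl2 and chr5:90785851-90786070 for Cxcl3, all on the plus strand. Capitals mark matches to the kappa-B consensus on either strand, with overlapping matches joined.
Cxcl1: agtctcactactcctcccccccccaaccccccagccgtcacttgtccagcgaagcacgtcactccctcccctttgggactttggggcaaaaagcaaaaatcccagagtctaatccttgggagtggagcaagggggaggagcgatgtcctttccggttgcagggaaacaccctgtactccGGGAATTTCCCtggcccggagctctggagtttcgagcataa
Cxcl2: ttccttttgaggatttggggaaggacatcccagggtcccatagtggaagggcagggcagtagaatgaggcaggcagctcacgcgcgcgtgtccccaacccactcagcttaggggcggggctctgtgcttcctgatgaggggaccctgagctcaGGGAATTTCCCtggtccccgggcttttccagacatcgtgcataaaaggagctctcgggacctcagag
Cxcl3: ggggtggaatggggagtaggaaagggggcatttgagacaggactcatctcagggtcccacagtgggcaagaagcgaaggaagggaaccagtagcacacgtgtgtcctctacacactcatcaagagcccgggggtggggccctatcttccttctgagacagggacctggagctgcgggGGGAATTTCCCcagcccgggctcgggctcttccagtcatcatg
All 3 held the same run GGGAATTTCCC, which matches the consensus on both strands and starts 71, 97 and 73 bases before the start site in Cxcl1, Cxcl2 and Cxcl3. RefSeq windows near the annotated start were at hand for 30 of the 47 genes. The kappa-B consensus lay within 250 bases before the start in 6 of 20 ligands and 2 of 10 receptors. Over all RefSeq windows the share was 7.25%. The consensus was found in 3 of 8 tested ligands with 30 °C replicate 1 and 4 °C replicate 2 on top. Of the other tested ligands, 1 of 6 held it. These sets follow a pattern chosen after its values were seen, and Cxcl2 and Cxcl3, which share the run above, are among the 3. No conclusion is drawn from these counts. A match is a description of the sequence only. Of the transcript sequence of Cxcl2, 5.84% (in runs of 50 bases) is shared with Cxcl3, so that some reads could be assigned to either gene.

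The remaining receptors and ligands had overlapping groups. Ccr6 had 11.9, 31.4 and 44.9 TMM-scaled CPM at 30 °C and 38.5 and 12.8 at 4 °C. It was lowest in the tumours where the tested neutrophil and monocyte attractants were highest. The B cell markers Cr2 (88.7, 204 and 424 at 30 °C, 460 and 208 at 4 °C) and Pax5 (102, 186 and 382 at 30 °C, 338 and 185 at 4 °C) were also low in 30 °C replicate 1. Both were singled out after their values were seen. The whole B cell list summed to 12624, 12652 and 14492 at 30 °C and to 17804 and 18058 at 4 °C, with all 10 genes positive, and its part in the Ccr6 level was not tested.
Ccr9, which directs lymphocytes to the gut, had 4.90, 7.64 and 9.47 at 30 °C and 9.0 and 8.51 at 4 °C, and its ligand Ccl25 had between 1.44 and 2.59 in all libraries. An uncharacterised transcript on the opposite strand overlaps 18.8% of the exon bases of Ccr9. Ccr8 and Ccr10, receptors of T cell subsets and of skin-homing and plasma cells, stood between 0.493 and 0.945 and between 1.31 and 2.04. Ccl27a, a ligand of Ccr10, had between 0.903 and 2.28, but 28.4% of its transcript sequence is shared with a near-identical copy, so its level is uncertain. Cxcl14 had 1.60, 1.07 and 0.218 at 30 °C and 0.0497 and 2.10 at 4 °C. All had overlapping groups.
Of the 12 genes that were not tested, 4 had 0 counts in every library. These were Ccl20 (the ligand of Ccr6), Ccl21b, Ccl26 and Cxcl17, and a count of 0 allows up to 0.185 CPM in the shallowest library. Ccl21b is identical in sequence to other annotated copies, so its 0 counts say little about its expression. Ccl27b had 1 count in 1 library. Ccl28 had 13, 1, 4, 2 and 4 counts and Ccl1 had 3, 3, 2, 1 and 6. The other 5, Cxcr1, Cxcl1, Cxcl11, Cxcl15 and Ccl17, are described above. Intervals and floors cover counting error only.

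Many of these genes lie in clusters, and neighbours shared the sign of their log2 fold change in some clusters and not in others. On chromosome 11, the monocyte attractants Ccl2, Ccl7, Ccl11, Ccl12 and Ccl8 lie with Ccl1 between 82035571 and 82305690, and 4 of the 5 tested had 30 °C replicate 1 and 4 °C replicate 2 as the highest libraries. Further along the same chromosome, from 83525778 to 83664683, Ccl5, Ccl9, Ccl6, Ccl3 and Ccl4 had log2 fold changes from -0.095 to 0.72. On chromosome 5, Cxcl5, Cxcl3, Cxcl15, Cxcl1 and Cxcl2 lie between 90759360 and 90905938, and all 3 tested of these showed the same highest libraries. The chemokines Ppbp and Pf4, outside the symbol choice, lie in the same stretch and did not. Both were highest in 30 °C replicate 2, at 243 and 85.4 TMM-scaled CPM. Cxcl9, Cxcl10 and Cxcl11 lie between 92321347 and 92365485. Of these, 0 of the 2 tested had 30 °C replicate 1 and 4 °C replicate 2 as the highest libraries, while both had positive log2 fold changes (0.79 each). On chromosome 9, the receptors Ccr9, Cxcr6, Ccr1, Ccr3 and Ccr2 lie between 123678439 and 124113557, with 3 positive and 2 negative log2 fold changes, from -0.96 for Ccr1 to 0.57 for Ccr3, its neighbour.

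The rest of the chemokine system was read from lists of genes. Of 12 further ligands and receptors, 0 were called and 7 had positive log2 fold changes, with a median of 0.23. Xcl1, which attracts cross-presenting dendritic cells, had 3.35, 4.27 and 4.10 TMM-scaled CPM at 30 °C and 4.58 and 8.81 at 4 °C (log2 fold change 0.77, SE 0.37, adjusted p = 0.76, edgeR). Ackr1, the chemokine receptor of red cells and venules, had 12.6, 14.5 and 7.25 at 30 °C and 6.37 and 9.17 at 4 °C.
Of 29 genes of receptor signalling, 0 were called and 16 were positive, with a median of 0.047. Arrb1, a β-arrestin that takes receptors out of the membrane, had 211, 239 and 210 at 30 °C and 167 and 144 at 4 °C (log2 fold change -0.50, SE 0.17, adjusted p = 0.70, edgeR). Rgs1, which ends G protein signals, had 24.7, 18.6 and 34.5 at 30 °C and 38.3 and 42.4 at 4 °C. Rasgrp2, which activates integrins, had 96.2, 102 and 105 at 30 °C and 120 and 137 at 4 °C.
Of 22 inducers and their transcription factors, 18 were tested and 0 were called, with 11 positive and a median of 0.16. The smallest p was that of Irf7, a master regulator of type I interferon, with 190, 241 and 184 at 30 °C and 100 and 94.5 at 4 °C. Its log2 fold change was -1.07 (SE 0.19, adjusted p = 0.69, edgeR), and it was the only gene of these 3 lists that the DESeq2 Wald test called. Relb, a subunit of NF-κB, had 47.4, 50.3 and 69.1 at 30 °C and 88.2 and 84.8 at 4 °C (log2 fold change 0.64, SE 0.21, adjusted p = 0.70, edgeR). Nfkbia, an inhibitor of NF-κB, had 148, 93.1 and 151 at 30 °C and 196 and 166 at 4 °C. In Irf7, Relb and Nfkbia the groups did not overlap.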

How the data were processed

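Total RNA of 5 tumours was sequenced from TruSeq libraries. The deposited values are whole numbers per gene and were used as raw counts. Sources differ on how the authors made them: the paper names featureCounts on Gencode vM19, while the submitters' processing notes name fastp, HISAT, RSEM and GRCm38 without their roles, and which tool gave the deposited counts is not given in the sources used here. Strandedness and the handling of multi-mapped reads are not given in the sources used here. 333 entries without a name, between 0.0101% and 0.0170% of the counts of a library, were left out, and for 97 symbols with several entries only the most abundant was used under that symbol. None of the 47 genes was among these.

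The members and gene lists were chosen with earlier results of these data known. Counts were filtered with filterByExpr and scaled by TMM in edgeR 4.0.16 (R 4.3.3). Groups were compared with glmQLFit (robust) and glmQLFTest, without covariates, and p-values were adjusted by the Benjamini-Hochberg method over 16133 genes (threshold 0.05). Methods were tested on simulated counts. Exon lengths and positions come from GENCODE M21, promoters from RefSeq (both GRCm38). Full values are given for the 10 tested genes with the smallest p, the 5 ligands and 5 receptors highest per kb, the neutrophil, interferon-inducible, retention, monocyte and Ccr1 ligand-receptor groups, and the 3 smallest p of each list of other pathway genes. Other genes were named after their values were seen. Alternatives were DESeq2 1.42.0, other scalings and filters, a replicate block, non-robust fitting, omission of each tumour, removal of acinar genes and summed entries. Library batches and dates are not given in the sources used here. Values of 1 tested receptor, which is included in the fits and counts, are not reported here. P-values set the difference between groups against the spread between these tumours. In both tools the estimated spread of a gene also draws on that of the other genes.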

Additional observations from a re-analysis of the deposited data

How the results depend on the processing

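None of the 35 genes was called by edgeR, and 0 were called under each of the 14 alternatives, where DESeq2 gave 16 of them no adjusted p. The range without 1 tumour each was 1 to 7 for genes with an unadjusted p under 0.05 and a higher level at 4 °C (4 with all tumours), 0 to 3 for a lower level (2 with all tumours), -0.55 to 0.94 for the median log2 fold change of the ligands and 0.085 to 0.31 for that of the receptors. Without either 4 °C tumour the group holds 1 tumour, whose spread is taken from the other group. With DESeq2, 1 inducer (Irf7) was called in place of 0. Over all genes, 118 were called with DESeq2 (of 11697 with an adjusted p) and 44 with the replicate block, in place of 0. The cause was not tested.

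Of 25 genes given in full and tested, 14 kept the sign of their log2 fold change under every alternative that gave a value, among them the 10 with the smallest p. The others turned in 20 of 342 values. Upper-quartile scaling turned Ccl9 (0.030). The replicate block turned Ccl12 (-0.38) and Ccr6 (0.21). In the labels, tumours of the same replicate share only a number. Deviations from the group means correlated at -0.25 for replicate 1 and 0.26 for replicate 2. With 2 tumours at 4 °C, their deviations are mirror images, so these values cannot show whether tumours of the same number are paired. With 1 tumour left out at a time, the sign turned in Cxcl5 (-1.23 to 2.61), Cxcl3 (-2.75 to 2.05), Cxcl2 (-2.26 to 1.22), Ccl2 (-0.93 to 1.48), Ccl7 (-0.50 to 2.78), Ccl12 (-3.10 to 2.54), Ccl8 (-1.28 to 2.28), Ccl9 (-1.25 to 0.61), Ccl6 (-0.58 to 0.26), Ccl3 (-0.19 to 0.96), Ccr6 (-1.20 to 0.38), given with the lowest and highest value. With 2 tumours at 4 °C, precision is limited throughout.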
